A study of Mus musculus with 6 samples.

Results

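Distal chromatin that was listed as accessible only after deletion of the Sox2 enhancer cluster SRR2-18, and that carries the DNA element of the AP-1 factors at its centre, forms the set described here. A member is a region of the peak list of the deletion line (ΔSRR2-18) that shares no base with a region of the parent list, whose strongest summit lies more than 1 kb from every transcription start site (TSS) of GENCODE M21, and which holds an exact TRE (TGACTCA, or TGAGTCA on the other strand) within 100 bp of that summit. Of the 107480 regions in the ΔSRR2-18 list, 89621 were distal and 64049 of these (71.5%) were deletion-only. A TRE was present in 27122 of the deletion-only distal regions (42.3%), and these are the members. Both percentages are set by the rule that chose the members, and nothing is read from them.

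The measurements are ATAC-seq peak lists, in which a transposase inserts sequencing adapters into open DNA. Neural stem and progenitor cells (NSPCs) were derived from F1 embryonic stem cells with a 129S1 and a Cast genome. The parent cells carry Sox2 tagged with mCherry on the 129 allele and no enhancer deletion (clone 5B), whereas the ΔSRR2-18 cells lack the SRR2-18 interval on both alleles and come from a single clone, 47D, so that genotype and clone cannot be told apart. Each genotype was sampled as 3 cultures, grown in N2B27 with EGF and bFGF on poly-d-lysine and laminin. The labels give 30000 cells per culture. The deposited lists pool the 3 cultures of a genotype, which leaves the values below without replicate error, and genotypes were not tested against each other. The intervals given are 95% Wilson intervals for shares and 95% intervals on the log scale for ratios, and they cover counting error only.

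AP-1 is a family of dimers of JUN, FOS, ATF and JDP proteins, which join through leucine zippers and grip DNA with the adjacent basic stretch. JUN-FOS dimers prefer the TRE, a near-palindrome of 7 bases around a central C or G, whereas the CRE, which has 1 more base in the middle, is preferred by dimers with ATF or CREB proteins. AP-1 is induced within minutes by growth factors such as EGF and FGF and by stress, and it is known to open chromatin at enhancers together with other factors. A TRE in a window is a sequence match, and no binding was measured.

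Examples from the members with the highest fold enrichment show what such a region looks like, and some of higher rank are not shown. Each is given on the forward strand of mm10 with the TRE in capitals, 27 bases on either side of it, and the name of the nearest protein-coding gene.
Dcaf6, chr1:165433018-165433078: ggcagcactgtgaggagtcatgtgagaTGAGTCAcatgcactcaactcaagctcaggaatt
Phc3, chr3:30982192-30982252: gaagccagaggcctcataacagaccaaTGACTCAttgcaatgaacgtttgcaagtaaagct
Agbl1, chr7:77113890-77113950: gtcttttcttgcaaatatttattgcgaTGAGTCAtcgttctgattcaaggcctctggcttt
Sec23a, chr12:58828034-58828094: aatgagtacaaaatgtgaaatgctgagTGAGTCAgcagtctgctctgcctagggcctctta
Ipcef1, chr10:6953270-6953330: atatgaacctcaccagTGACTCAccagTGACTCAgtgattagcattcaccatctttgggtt
The Dcaf6 region (chr1:165432652-165433421) lay in an intron of Dcaf6, an adaptor of a ubiquitin ligase, and had the highest fold enrichment of all members, 39.19 over local background, with 933 reads at the summit. The Phc3 region (chr3:30981851-30982380) was intergenic, 12794 bp from the TSS of the Polycomb subunit gene Phc3, and reached 37.84. The Agbl1 region (chr7:77113661-77114285) lay in an intron of Agbl1 and reached 37.26. In the Ipcef1 region (chr10:6952944-6953554), 2 TREs stood 11 bases apart from centre to centre. The 10 strongest members that overlapped neither the conservative nor the optimal parent list had fold enrichments from 34.25 to 39.19 and the highest IDR score, 1000. Of these 10, 4 lay in introns and 6 between genes, and 7 held a single TRE.

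The members as a whole were of middling height within their list. Their median fold enrichment was 10.84 (quartiles 7.08 and 16.8), and the median −log10 p was 213. The median member ranked in the top 47.8% of all ΔSRR2-18 regions by fold enrichment and in the top 51.1% by −log10 p. Members were 529 bp wide in the median, 78.3% had a single summit and 82.5% had the highest IDR score. Deletion-only distal regions without a TRE (n = 36927) were lower, with a median of 8.91 (6.15 and 13.6), and distal regions with a TRE that were shared with the parent (n = 4513) were higher, with 14.1 (9.27 and 19.2), and wider, with 691 bp. Shared distal regions without a TRE lay between these, as the plot of fold enrichment by class shows. Fold enrichment goes with −log10 p and so bears on which regions enter a list, and these values only describe the classes.

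**Figure D1:**
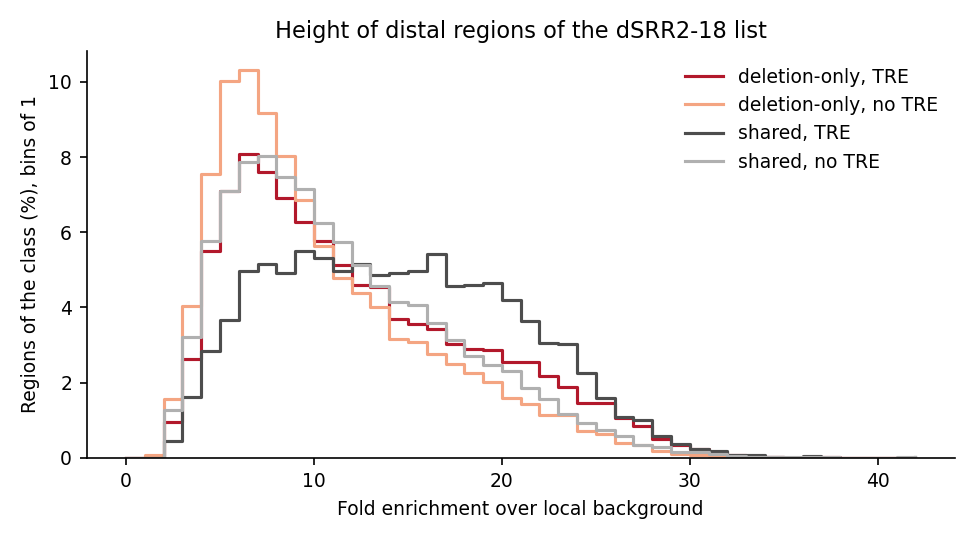
Fold enrichment over local background (x axis, bins of 1) against the percentage of each class of distal regions of the ΔSRR2-18 list (y axis), for deletion-only and shared regions with and without a TRE. Deletion-only regions with a TRE (median 10.84) sit to the right of those without one (8.91) and to the left of shared regions with a TRE (14.1).

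The height of a summit in reads follows from the fold enrichment together with the −log10 p, which MACS2 derives from it, and every summit used gave a whole number of reads (within 0.05). Reads here are the height of the pileup. The lowest background, which is the genome-wide mean of a list, was 19.7 reads in the ΔSRR2-18 list and 38.8 in the parent list, a ratio of 1.98, so that the parent list came from the deeper data. Member summits held 330 reads in the median (quartiles 197 and 604). At the parent depth this would be 652 reads, against a median of 548 for parent distal regions, and 96.6% of members would reach at least the lowest 10% of parent distal regions (216 reads). The rule took members from regions called in the ΔSRR2-18 list, so these scaled heights follow in part from how members were chosen. The part of depth in their absence from the parent list was not tested.

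The promoters of the NSPC marker genes Sox2, Nes, Vim, Fabp7, Slc1a3, Pax6, Msi1 and Sox1 held a region in both lists, 8 of 8 in each. This is accessibility at the promoter, and expression was not measured in these files. Presence in both lists does not mean equal height, and the paper reports less accessibility at the Sox2 promoter in the deletion cells. The share over all promoters is not given here.

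TREs of members gathered at the summit. The rule fixed only that a TRE lies within 100 bp, and where it lies inside this window was not fixed. Of the 30257 TREs of members, 11636 (38.5%; 37.9 to 39.0) had their centre within 20 bp of the summit, whereas an even spread over the window would give 21.03%. The share was 33.7% (32.4 to 35.1) for TREs of shared distal regions and 20.1% (17.8 to 22.7) for the 1063 TREs of parent-only distal regions. The nearest TRE was 25 bp from the summit in the median member, 30 bp in shared and 47 bp in parent-only regions. The counting intervals of the 3 classes do not overlap. In parent-only regions the TREs were spread almost evenly, as the plot of TRE position shows, and 2.58% of these regions held a TRE, against 3.11% of their flanks. Shared regions with a TRE were wider than members, and fewer had a single summit (60.9% against 78.3%). The part of this in the TRE distances was not tested. A TRE close to the summit did not go with a higher region: among members with 1 TRE, the median fold enrichment was 10.1 with the TRE within 10 bp (n = 5256) and 11.2 with the TRE at 51 to 97 bp (n = 5103), with quartiles that overlap widely.

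**Figure D2:**
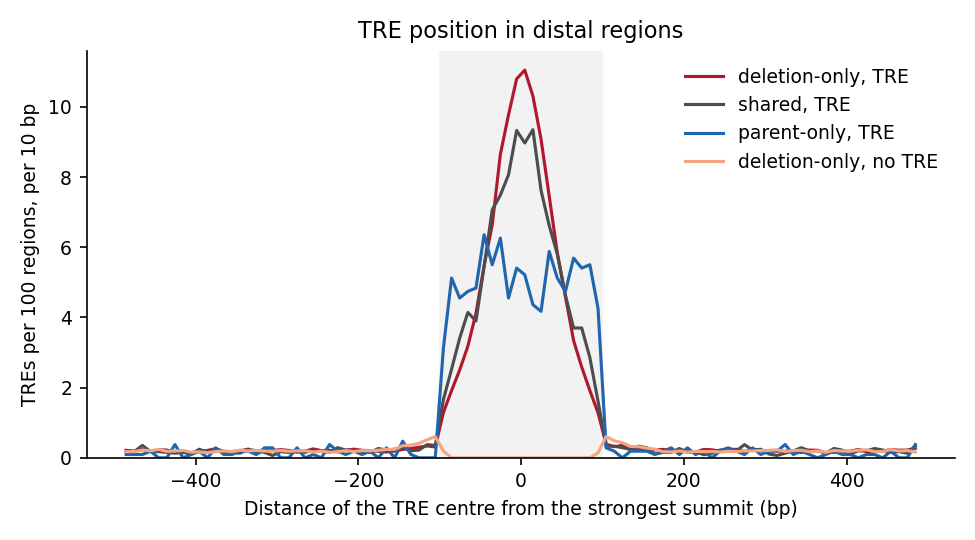
Number of TREs per 100 regions in bins of 10 bp (y axis) against the distance of the TRE centre from the strongest summit (x axis) in 4 classes of distal regions; the grey band is the window the rule used. Deletion-only and shared regions peak at the summit, whereas parent-only regions are flat across the band. The class without a TRE is empty in the band by its definition.

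Most members held a single TRE. There were 24174 members (89.1%) with 1 TRE, 2782 with 2, 149 with 3 and 17 with 4 or more, up to 5. At least 2 TREs were found in 10.9% (10.5 to 11.2) of members, in 7.25% (6.53 to 8.04) of shared distal regions with a TRE, and in 9 of the 1054 parent-only ones (0.854%; 0.450 to 1.61). The median fold enrichment was 10.6 with 1 TRE, 13.7 with 2, 15.3 with 3 and 15.8 with 4 or more, although the quartiles of these classes overlap. Across all deletion-only distal regions, the share with a TRE climbed from 33.5% (32.3 to 34.6) in the lowest 10% by fold enrichment to 59.7% (58.5 to 60.9) in the highest 10%, and from 31.6% to 57.4% between the same ends by −log10 p. These shares only describe how the TRE, by which members were chosen, falls over height. In flanking windows, 500 bp from the summits of deletion-only distal regions, the share was 3.74%.

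**Figure D3:**
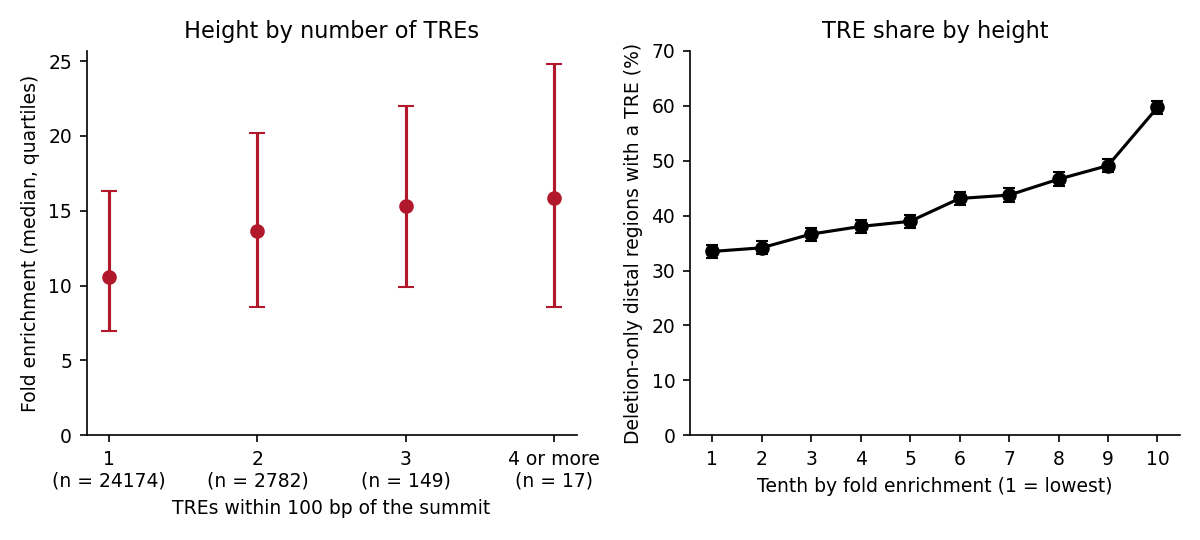
Left, fold enrichment of deletion-only distal regions (y axis; point, median; bars, quartiles) by the number of TREs in the window (x axis). Right, percentage of deletion-only distal regions with a TRE (y axis; bars, 95% Wilson intervals) in 10 equal groups by fold enrichment (x axis). The median rises from 10.6 to 15.8 with the number of TREs, and the share from 33.5% to 59.7% with height.

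The members with the most TREs held 5 in the window. Both sequences below span the summit by 100 bp on each side, with every TRE in capitals.
Foxa2, chr2:147744086-147744286: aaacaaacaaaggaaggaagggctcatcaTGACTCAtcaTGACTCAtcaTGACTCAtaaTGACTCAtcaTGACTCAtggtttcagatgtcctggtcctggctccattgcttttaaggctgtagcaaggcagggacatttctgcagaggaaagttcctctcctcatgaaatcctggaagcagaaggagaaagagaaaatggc
Hfm1, chr5:106853392-106853592: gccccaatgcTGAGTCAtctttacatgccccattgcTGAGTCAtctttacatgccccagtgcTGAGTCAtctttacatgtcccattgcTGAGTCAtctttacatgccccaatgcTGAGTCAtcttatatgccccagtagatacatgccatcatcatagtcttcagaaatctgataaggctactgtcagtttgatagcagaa
The first region (chr2:147743807-147744557) was intergenic, 301762 bp from the TSS of Foxa2, a forkhead factor of the floor plate and endoderm, and had a fold enrichment of 15.88 with 474 reads. The second (chr5:106853249-106853790) lay in an intron of Hfm1, a meiotic helicase gene, with 15.83 and 326 reads. Another (chr8:38757181-38757594), 95845 bp from Sgcz, reached 10.21, and a further one (chr1:42591730-42592358), in an exon of the noncoding gene Pantr1 near Pou3f3, reached 6.34, below the median of members. The last of the 5, in an intron of Msra (chr14:64368032-64368694), held 4 TREs and had the highest fold enrichment of the 5, 26.85. Among all members with more than 1 TRE, the most frequent distances between neighbouring TRE centres were 25 bp (66 pairs), 11 bp (63 pairs) and 10 bp (58 pairs).

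The bases next to the TRE differed from those of other TREs in the genome. The exact TRE occurs 433145 times on chromosomes 1 to 19, X and Y of mm10, and 30257 of these (6.99%) lay in member windows. Read on the strand TGACTCA, a T before it was found in 6.91% of member TREs, against 19.3% of all TREs in mm10 and 18.4% of TREs in the flanks of members, and an A after it in 9.24%, against 23.1% and 20.8%. A before and T after were the most frequent, with 34.1% and 33.2%. Of the genomic GTGACTCAT matches, 13.6% (13.1 to 14.0) lay in member windows, of ATGACTCAT 12.2% (11.8 to 12.6), and of TTGACTCAA 0.872% (0.755 to 1.01). These 3 elements share the same 7 bases, and the rule did not use the bases beside them. TREs of shared regions likewise had few T before (7.29%) and few A after (9.08%), whereas those of parent-only regions had 16.4% and 20.7%, close to the genome. A before the TRE was more frequent in members, with 34.1% (33.6 to 34.7), than in shared regions, with 28.0% (26.8 to 29.3).

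Members were less often in annotated repeats than TREs of the genome, but more often than the other classes of regions. The centre of the TRE was soft-masked as a repeat in the reference at 9.84% of member TREs, against 21.3% of all TREs in mm10, and 3.23% of soft-masked TREs lay in members compared with 8.0% of the others. At the summit, 9.96% (9.60 to 10.3) of members were soft-masked, against 8.48% (8.20 to 8.77) of deletion-only distal regions without a TRE, 6.62% (5.94 to 7.39) of shared and 6.93% (5.54 to 8.62) of parent-only regions with one. In all, 213 members (0.785%) shared the 31 bases around their TRE with another member. Related but not identical sequence was found when the gap between the TRE and other motifs was counted, and it was followed up after these values were seen. A HOX-PBX match (TGATTNAT, where N is any base) followed the TRE after a gap of 18 bases in 62 members, against a median of 5 over the 164 gaps, sides and strands counted, and a RUNX match (TGTGGTT) on the opposite strand preceded it by 3 bases in 37, against 5. A CEBP match (TTGCNNAA) on the opposite strand followed after 29 bases in 25 members, against 7, and a CDX match (TTTATNG) on the opposite strand after 3 bases in 29, against 8. In the first 3 cases most of these members resembled each other over the 60 bases on either side of the TRE centre, with a median of 71.9%, 67.5% and 62.3% of positions equal to the most frequent base, against 28.1% for all members. The CDX group did not share its surroundings to this extent, with a median of 37.7% and 7 of 29 members at 60% or more. It was still often in annotated repeats: 15 of its 29 members were soft-masked, against 2629 of all 27122. In the HOX-PBX, RUNX and CEBP gap groups, soft-masked members numbered 44 of 62, 34 of 37 and 15 of 25. The highest fold enrichment of the CDX group, 37.26, was that of the Agbl1 region.

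A pair of members each from the HOX-PBX and CEBP groups and 1 from the RUNX group are shown on the forward strand, with 42 bases on either side of the TRE, since the TRE of each sits in the same surroundings.
HOX-PBX gap, chromosome 12, chr12:48605426-48605516: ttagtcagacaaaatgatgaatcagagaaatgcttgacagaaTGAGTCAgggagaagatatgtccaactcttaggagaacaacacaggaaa
HOX-PBX gap, chromosome 2, chr2:62935569-62935659: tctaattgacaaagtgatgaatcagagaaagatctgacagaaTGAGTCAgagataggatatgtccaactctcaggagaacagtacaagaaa
RUNX gap, chromosome 3, chr3:102899290-102899380: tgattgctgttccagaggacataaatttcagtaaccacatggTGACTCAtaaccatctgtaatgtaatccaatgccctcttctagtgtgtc
CEBP gap, chromosome 12, chr12:54327649-54327739: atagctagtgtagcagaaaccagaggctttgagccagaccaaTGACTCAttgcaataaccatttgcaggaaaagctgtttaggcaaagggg
CEBP gap, chromosome 7, chr7:66130468-66130558: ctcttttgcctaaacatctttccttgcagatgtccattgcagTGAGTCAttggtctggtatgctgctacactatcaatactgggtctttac
When all members were compared with the consensus of each group, 108 were at least 60% alike to the HOX-PBX group, 42 to the RUNX group and 159 to the CEBP group, on 18 to 20 chromosomes, and 89, 42 and 138 of these were soft-masked at the TRE. The groups differed in how often a genomic copy was a member: of the TREs in mm10 with these surroundings, 12.2% (10.4 to 14.3) and 13.3% (11.5 to 15.3) lay in members for the HOX-PBX and CEBP groups, but 1.49% (1.13 to 1.97) for the RUNX group, against 6.99% of all TREs. The consensus was made from members, which favours their own copies. The CEBP group included the Phc3 and Agbl1 regions, that is, 2 of the 10 members with the highest fold enrichment. Its median fold enrichment was 9.83, below that of all members.

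Other motifs were measured in the same windows, and flanks 500 bp away gave the level of the surrounding sequence. Exact consensus matches on either strand were used, and each share is a description of sequence. Members held TEAD sites (ACATTCC, bound by the partners of YAP and TAZ) in 6.56% (n = 1779), which was 2.24 times the share in their flanks (2.10 to 2.39). ETS sites (CAGGAAGT or CCGGAAGT) were 2.19 times as frequent as in the flanks (2.00 to 2.40), HOX-PBX sites 1.68 times (1.58 to 1.79), ZIC sites (CAGCAGG) 1.64 times (1.55 to 1.74) and RUNX sites 1.38 times (1.30 to 1.46). Homeodomain sites (TAATTA) were 0.414 times as frequent (0.384 to 0.447), CDX sites (TTTATNG) 0.842 times (0.807 to 0.878) and GRHL sites (AACNNGTT) 0.769 times (0.705 to 0.839). The share with a SOX site (AACAATG or AACAAAG, bound by SOX2 and its relatives) was 8.41%, or 0.946 times the flanks (0.902 to 0.992), whereas 14.8% of parent-only distal regions held one. The extended element of MAF proteins, counted as TGACTCAGC on either strand, was found in 2607 members (9.61%). The form TGAGTCAGC was not counted.

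Deletion-only distal regions that lack a TRE were set apart from members by the TRE itself. The part of this split in the ratios below was not tested. Compared with these regions, no motif was more frequent in members beyond its interval. Of the 20 other motifs compared, 13 were less frequent in members with an interval below 1. Beside those spelled out above or below, the 20 include CRE (TGACGTCA), FOX (TGTTTAC), OCT (ATGCAAAT), posterior HOX (TTTACGA), KLF (GGGNGTG), STAT (TTCCNGGAA), SMAD (GTCTAGAC) and NFI sites. HOX-PBX sites were found in 6.38% of members and 13.5% of the regions without a TRE, a ratio of 0.472 (0.448 to 0.497), TEAD sites in 6.56% and 12.6%, a ratio of 0.522 (0.495 to 0.550), and RUNX sites in 6.72% and 9.84%, a ratio of 0.683 (0.647 to 0.721). The ratios of SOX sites, 0.991 (0.941 to 1.04), and of ZIC sites, 0.989 (0.936 to 1.05), had intervals that include 1, and their direction turned under an alternative. Median fold enrichment differed little with a further motif: it was highest in members with an ETS or SMAD site (12.2 each), followed by TEAD (12), HOX-PBX (11.9) and STAT sites (11.7), and, leaving aside NFI sites with 5 members, lowest with homeodomain (9.92), CRE (10.04), GATA (10.2), GRHL (10.3) and SOX sites (10.5), against 10.84 over all members. The plot of other motifs gives the shares in both classes beside the flanks of the members.

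**Figure D4:**
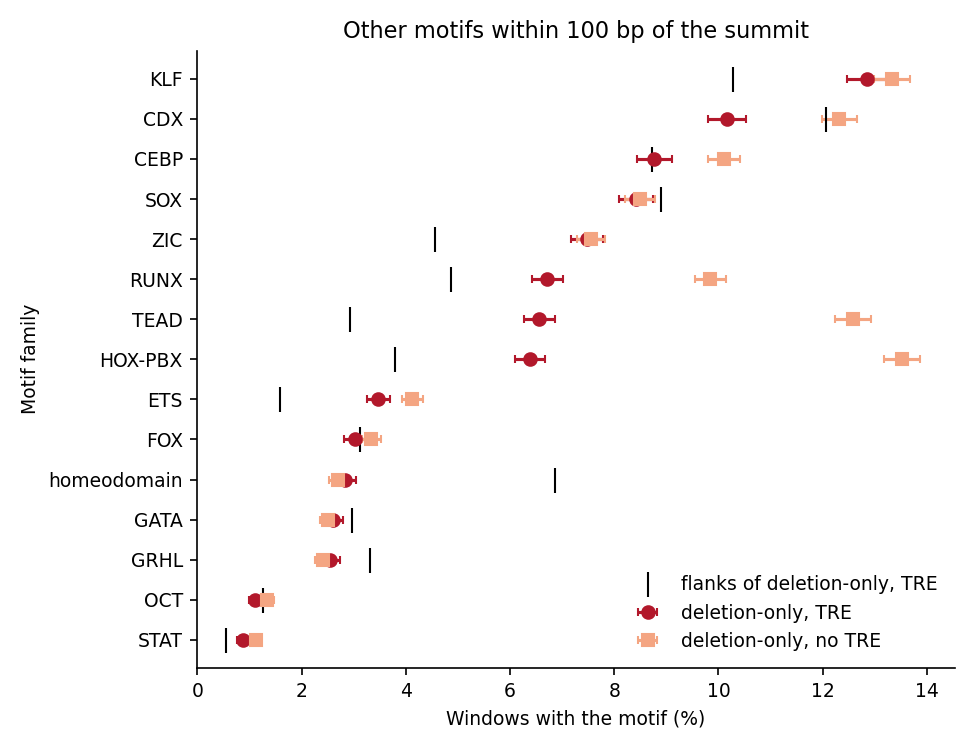
Percentage of windows with a motif (x axis; bars, 95% Wilson intervals) for 15 motif families (y axis) in deletion-only distal regions with a TRE (circles) and without a TRE (squares); vertical ticks mark the flanks of the regions with a TRE. TEAD and HOX-PBX sites stand above the flanks in members and higher still in regions without a TRE, and homeodomain sites stand below the flanks in both.

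Regions shared with the parent that hold a TRE gave another contrast, since they have the same element. Members more often held HOX-PBX sites (6.38% against 3.39%, a ratio of 1.88, 1.60 to 2.21), CDX sites (10.2% against 6.51%, 1.56, 1.39 to 1.75), GATA sites (AGATAAG; 1.48, 1.18 to 1.86), GRHL sites (1.28, 1.03 to 1.59) and RUNX sites (1.23, 1.08 to 1.40). They less often held ZIC sites (7.47% against 12.2%, 0.614, 0.562 to 0.671), the MAF element (0.695, 0.641 to 0.754), CTCF sites (AGGGGGCG; 0.289, 0.194 to 0.430), KLF sites (0.841, 0.780 to 0.907) and SOX sites (0.850, 0.771 to 0.935). TEAD sites were at 6.56% and 7.18%, a ratio of 0.914 (0.815 to 1.02), so that the interval includes 1. Member windows had a mean GC content of 45.9% ± 5.73 (SD over regions) and shared windows 50.1% ± 5.82, and the part of this gap in these ratios was not tested. Against their own flanks, members held CDX, GATA and GRHL sites less often (0.842, 0.873 and 0.769 times). HOX-PBX sites with C for the N of TGATTNAT were in 3.40% of members and 1.53% of shared regions. With A, G or T they were in 3.09% and 1.86%.

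Many deletion-only distal regions fell outside the set by a single base. Of the 36927 without a TRE, each of the 19 sequences that differ from the TRE at 1 position was counted and set against its own flanks. TGAATCA was found in 16.1% of these regions, 5.25 times its flanks (5.01 to 5.50), TGACTAA in 14.3%, 5.70 times (5.41 to 6.0), and TGAGTAA in 9.18%, 3.48 times (3.30 to 3.68). The rarer CGACTCA and CGAGTCA, in which a CpG opens the element, were 7.07 times (6.13 to 8.16) and 6.93 times (6.18 to 7.78) as frequent as in the flanks. At least 1 of these 5 sequences was present in 40.2% (39.7 to 40.7) of deletion-only distal regions without a TRE, against 8.73% of their flanks and 6.47% of parent-only distal regions without a TRE; the 5 were picked by their ratios. Over all 19 sequences the contrast was smaller, with 70.9% of these regions against 43.9% of their flanks, a ratio of 1.61 (1.60 to 1.63). Members held 1 of the 5 beside their TRE in 21.5%, 2.49 times their flanks (2.41 to 2.58). The HOX-PBX pattern contains TGATTCA, which is TGAATCA read on the other strand, when its open position is C. With C there, the pattern was 3.71 times as frequent in members as in their flanks (3.33 to 4.14), and with A, G or T 1.06 times (0.973 to 1.15), so that the excess in members lay with the form that holds a variant of the TRE. In regions without a TRE, the form with A, G or T was still 1.97 times as frequent as in the flanks (1.85 to 2.09).

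At the limits of the rule, members began 1002 bp from a TSS, and 104 deletion-only regions with a TRE were left out with 901 to 1000 bp. In 608 members the nearest TRE lay 88 to 97 bp from the summit, and 469 deletion-only distal regions were left out with a TRE at 98 to 107 bp. A parent region came within 3 bp of 2 members, and 7 shared distal regions with a TRE overlapped a parent region by 2 to 10 bp. Members were 9224 bp from the nearest parent region in the median, and 496 (1.83%) overlapped a region of the optimal parent list, whereas 25682 (94.7%) overlapped one of the optimal ΔSRR2-18 list.

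Members were spread over the genome. They lay in gene bodies in 55.7% (55.1 to 56.3) of cases, against 55.6% (55.0 to 56.1) of deletion-only distal regions without a TRE and 59.3% (57.8 to 60.7) of shared regions with one. By annotation, 52.9% were intronic, 2.84% exonic and the rest intergenic, and the median distance to a TSS was 19391 bp. Per megabase of sequence, autosomes held 9.19 (chromosome 7) to 12.3 members (chromosome 18), X held 4.74, and Y none. The share of deletion-only distal regions with a TRE ran from 40.5% on chromosome 12 to 43.9% on chromosome 7. On chromosome 12 from 100 to 120 Mb, member summits held 538 reads in the median, and from 60 to 100 Mb 396 and 398 in bins of 20 Mb, against 288 to 336.5 over the first 60 Mb, while the median fold enrichment was 10.4 to 10.9 from 60 to 120 Mb and 10.9 to 11.3 before. This stretch was singled out after its values were seen, and the source of the higher reads was not tested. Without chromosome 12 from 60 Mb on, there were 26321 members, and 42.47% of deletion-only distal regions had a TRE. Members whose summits followed each other within 10 kb were joined: 18918 (69.8%) stood alone and 677 clusters held 3 or more. The clusters with the most members held 7 each, and that nearest to Tcim (chr8:24188179-24213261), over 25.1 kb with fold enrichments up to 19.9, held no other distal region of any class. Another lay nearest to Trabd2b (chr4:114351212-114379996), which encodes an inhibitor of WNT proteins, with fold enrichments up to 21.7. Which clusters stand out depends on this distance. With 20 kb, a setting added after the data were seen, 14056 members (51.8%) stood alone, 1651 clusters held 3 or more, and those with the most members, 10 each, lay at Eps8 (chr6:137491664-137583172) and at Usp20 and Fnbp1 (chr2:30997098-31095021).

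A member counted toward the coding gene whose TSS was closest, if within 50 kb, and this placed 13788 members (50.8%) at 7847 of 21938 genes (35.8%). Assignment by distance does not show that a region acts on the gene. The genes with the most members were Foxp1, a forkhead repressor of neurons and other tissues, with 14, Mast4 with 13, Lpp, which encodes a protein of focal adhesions, and Tcf4, a class I bHLH gene, with 12 each, Eps8, which encodes a substrate of the EGF receptor, Nrg1, a ligand of ERBB receptors, and Pde4d, a cAMP phosphodiesterase gene, with 11 each, and Mical2, Samd4 and Utrn with 10 each. These are long genes, from 177.6 to 1504 kb, and the 286 genes with 5 or more members had a median length of 138 kb, against 17.4 kb over all coding genes. At Foxp1, 15 deletion-only distal regions without a TRE, 5 shared and 9 parent-only distal regions stood beside the 14 members, whose highest fold enrichment was 25.8. At Tcf4 the parent-only regions were more numerous, 28 against 12 members. At Nrg1, 11 members faced 2 parent-only regions. Of the genes with a member, 5013 (63.9%) also had a parent-only distal region, against 43.1% of all coding genes.

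The share of genes with a member was above that of all coding genes in 11 of 14 lists, whether tied to AP-1 or not, and below it in the lists of forebrain, ventral and spinal, and posterior factors. The excess was not particular to members. Deletion-only distal regions without a TRE and parent-only distal regions also reached more genes than over all coding genes (38.7% and 43.1%) in every list but posterior Hox and Cdx genes. For parent-only regions, epithelial genes were barely above, with 43.75%. The lists were chosen with earlier results of these data known, all their genes were found in the annotation, and their counts are read against the 35.8% of all coding genes. Of the 14 lists, 7 had a median gene length above the 17.4 kb of all coding genes, and genes with many members were long, so the share of a list's deletion-only distal regions that had a TRE is given as well, against 44.02% (43.5 to 44.6) over all coding genes.

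Among the AP-1 subunit genes, 11 of 14 had a member, and 22 of 38 deletion-only distal regions had a TRE (57.9%; 42.2 to 72.2), an interval that includes the share of all genes. These genes also had the other classes of distal regions more often than all coding genes, with a deletion-only region without a TRE at 9 of 14 (38.7% of all genes) and a parent-only region at 8 of 14 (43.1% of all genes). Jun had 5 members, Atf3 4 and Jdp2 3, whereas Batf, Junb and Jund had none. Parent-only distal regions numbered 6 at Jun, 1 at Atf3 and 7 at Jdp2. The strongest member at Jun (chr4:95081574-95082082), 29613 bp from its TSS, had a fold enrichment of 13.3 and lay 245 bp from a parent region. The strongest at Atf3 (chr1:191215834-191216789), 1748 bp from its TSS, had 15.8. Of the BACH, NRF and small MAF genes, whose products bind the extended form of the element, 5 of 9 had a member, with 7 at Bach1, 4 at Nfe2l2 and 3 at Bach2. The strongest at Nfe2l2 reached 27.9. Among textbook targets of AP-1, 15 of 20 had a member, led by the EGF receptor ligand gene Areg and the MAPK phosphatase gene Dusp1 with 4 each and the elastase gene Mmp12 with 3. The TRE share of this list was 42.6%, close to that of all genes.

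The windows of the strongest members at Jun, Areg, Acvr1 and Grhl2 are shown as examples of these lists, in the same layout as above.
Jun, chr4:95081826-95081886: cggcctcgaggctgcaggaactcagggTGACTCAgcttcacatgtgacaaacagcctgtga
Areg, chr5:91156840-91156900: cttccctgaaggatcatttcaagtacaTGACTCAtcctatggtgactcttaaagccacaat
Acvr1, chr2:58499773-58499833: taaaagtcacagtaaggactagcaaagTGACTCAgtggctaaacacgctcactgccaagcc
Grhl2, chr15:37244495-37244555: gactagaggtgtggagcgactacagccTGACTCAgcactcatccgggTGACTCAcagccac
The TRE of the Jun region is followed by GC, as in the extended element, and the window at Grhl2 holds a pair of TREs.

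Among signalling and adhesion genes, integrins had the highest share of genes with a member. In the TGF-beta and SMAD pathway, 16 of 19 genes had a member, with 6 each at the receptor gene Acvr1 and at Smad3 and 5 at the inhibitory Smad7, and none at Smad6, Tgfb1 and Tgfbi. The strongest at Acvr1 (chr2:58499593-58500006), in one of its introns, reached 24.8. Of the YAP, TAZ and TEAD genes and their targets, 10 of 15 had a member, with 5 each at Amotl2, Ccn2, Tead1, Vgll3 and Wwtr1, and the strongest at the matricellular gene Ccn2 (chr10:24554066-24554639) reached 31.2 with 2 TREs, within the top 0.184% of the list. The TRE share of this list was 53.7% (41.9 to 65.1). Of the integrin genes, 15 of 17 had a member, with 6 at Itgb1 and 5 each at Itga2 and Itgb5, and none at Itga4 and Itga8. Matrix and protease genes had a member in 18 of 22 cases, led by Tnc with 4 and by Adamts9, Col3a1, Col4a1, Fn1, Postn and Thbs1 with 3 each. MAPK feedback and EGF or FGF receptor genes had one in 15 of 23, led by Mapk10 with 6, Egfr with 5, and Dusp5 and Fgfr2 with 4 each. The TRE shares of these lists ran from 38.9% to 53.7%, and each interval includes the 44.02% of all genes.

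Among lists of cell identity, neural crest and mesenchymal transition genes had a member in 14 of 19 cases, with 4 at Twist2 and 3 each at Msx2, Snai1, Sox9 and Zeb2. Epithelial genes had one in 10 of 16, with 3 each at Grhl2, Krt8 and Trp63, and the strongest at Grhl2 (chr15:37244188-37244705), in an intron, reached 29.04. Radial glia and astrocyte genes had one in 12 of 18, with 4 at Tnc and 3 at Hopx. The Notch effector gene Hes1, Nfia, S100b, Slc1a2 and Slc1a3 had 2 each. Parent-only distal regions were more numerous at this list, with 86 at 17 of 18 genes against 22 members. Forebrain transcription factor genes had a member in 5 of 20 cases, with 2 each at Dlx2 and Otx1 and 1 each at Eomes, Gsx2 and Sp8. A deletion-only distal region without a TRE was found at 19 of 20, against 38.7% of all coding genes. The TRE share of the forebrain list was 17.9% (8.98 to 32.7), from 7 of 39 regions. The ventral neural tube and spinal neuron factors had a member in 5 of 18, with 3 at Irx3, 2 at Pax7 and 1 each at Dbx2, Evx1 and Nkx6-1. Their TRE share was 22.2% (11.7 to 38.1). Of the posterior Hox and Cdx genes, 1 of 21, Cdx4, had a member, and the TRE share was 13.3% (3.74 to 37.9), from 2 of 15 regions. The intervals of these 3 lists lie below 44.02%. The median gene lengths of these lists were 5.14 to 8.03 kb, and the part of length was not tested.

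**Figure D5:**
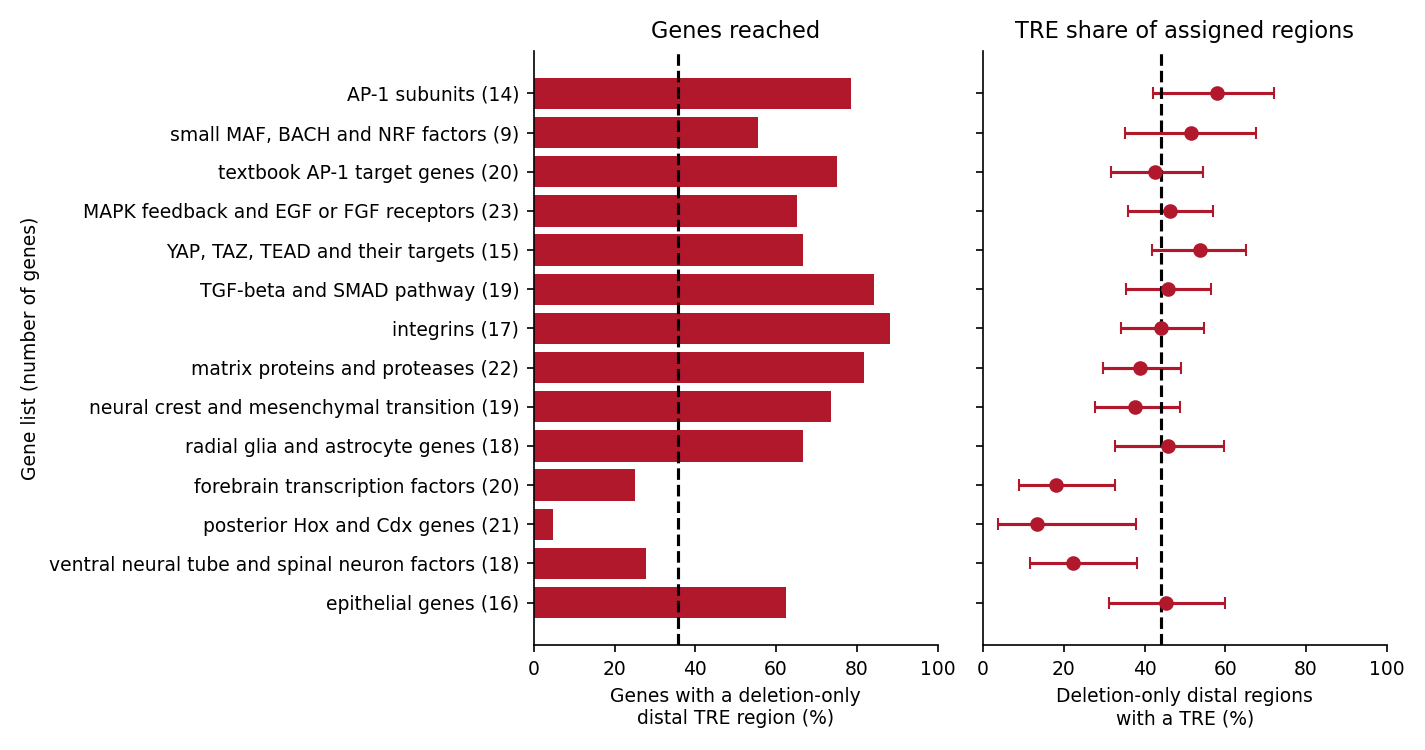
Left, percentage of the genes of each list with at least 1 deletion-only distal TRE region within 50 kb (x axis; number of genes in brackets). Right, percentage of the deletion-only distal regions assigned to each list that had a TRE (x axis; bars, 95% Wilson intervals). Dashed lines mark all coding genes (35.8% and 44.02%). Forebrain, posterior Hox and Cdx, and ventral and spinal lists lie left of both lines, and the other lists lie right of the line in the left panel.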

How the data were processed

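ATAC-seq was done by the authors on 3 parent and 3 ΔSRR2-18 NSPC cultures. Alignment to mm10 and peak calling by MACS2 followed the ENCODE pipeline for ATAC-seq, IDR then kept peaks that recur between cultures, and the submitters' notes also name deepTools. The deposited lists hold an IDR score, a fold enrichment (a ratio over local background), and −log10 p-values and q-values on pooled reads. Reads of the Cast allele that differ from mm10 can map less often.

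The conservative lists were used, and the optimal lists were an alternative. Distinct intervals took the values of their summit with the highest fold enrichment. Overlap needed 1 bp. TSSs, genes and exons came from GENCODE M21, and sequences from the reference GRCm38, where the window around a summit reached 100 bp to each side and flanks lay 500 bp away. TRE matches had to lie whole in the window. Intervals are at 95% (Wilson for shares). Python 3.11.15, pandas 2.3.3 and SciPy 1.17.1 were used. Motif scan, overlap, distances and read recovery were tested on simulated data.

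The members, gene lists and motifs were chosen with earlier results of these data known. Named regions are the 10 members highest in fold enrichment that overlap neither parent list and the 5 with the most TREs, chromosome 18 left out. Named genes are the 10 with the most members, up to 3 per list with the most members (ties among them were added later), and those with none where 3 or fewer. Clusters, groups of repeated sequence, variants of the TRE and chromosome 12 were named after their values were seen.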

Additional observations from a re-analysis of the deposited data

How the results depend on the processing

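Each list is 1 pooled set of peaks per genotype, so no left-out replicate could be run. No paired analysis was possible because the lists pool the cultures and their columns carry no replicate numbers. The number of members stayed within 1.5 times of 27122 under every alternative (21053 to 28661). The share of deletion-only distal regions with a TRE was 42.85% when absence was judged against both parent lists, 41.64% with the optimal lists, 43.84% with an IDR score of at least 830, 43.37% with a −log10 p of at least 50, and 32.87% with a motif window of 50 bp, which admits fewer matches. The share of members with at least 2 TREs was 11.37% with an IDR score of at least 830 and 6.13% with the window of 50 bp. The share in gene bodies was 55.11% with a TSS distance of 2.5 kb. With assignment limited to 10 kb, 3551 genes had a member. Against regions without a TRE, the SOX ratio turned to 1.01 with the optimal lists and to 1.022 when standardized over groups of equal GC content, and the ZIC ratio to 1.02 with an IDR score of at least 830, with intervals that include 1. The cause of these changes was not tested, apart from the window. The number of motifs less frequent in members was 12 or 13 throughout, and FOX, the least firm of them, had an interval that includes 1 under 3 of 4 alternatives. Leaving out chromosome 12 from 60 Mb on, an alternative chosen after the data were seen, moved none of the 6 shares and counts beyond its own interval or 1.5 times.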
